A study of Mus musculus with 17 samples.

Results

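The transcripts of 9 enzymes that handle ammonia, citrulline, arginine, ornithine and glutamine were followed through 17 mouse RNA-seq libraries. They are Nags, Cps1, Otc, Ass1, Asl, Arg1, Arg2, Glul and Aldh18a1, chosen by name as the urea cycle and its glutamine and proline side steps. Earlier results of these data were known when they were chosen. All 9 were found among the 33840 gene symbols of the small intestine files and among the 24594 gene identifiers of the files labelled liver, and all 9 passed the filter on low counts in both. Per the labels every library came from WT mice and falls into 1 of 7 groups. From the small intestine there are crypts after hepatectomy, crypts after a sham operation, IEC after hepatectomy and IEC after a sham operation, with 2 libraries each. The other groups are labelled liver with treatment DSS at day 0, day 10 and day 20, with 3 libraries each. Hepatectomy is the surgical removal of liver tissue, crypts are the epithelial pits that hold the intestinal stem cells, and IEC in common use means intestinal epithelial cells. DSS in mouse gut studies usually stands for dextran sulfate sodium, which injures the colon lining; the labels do not spell it out. Strain, age, the extent of the resection and the time after it are not given in the sources used here, nor is it said whether replicates are different animals. The p-values therefore cover only the variation among the libraries at hand, and this may be technical.

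The urea cycle turns ammonia into urea in liver cells. N-acetylglutamate synthase (Nags) makes the activator of carbamoyl phosphate synthetase (Cps1), whose product is joined to ornithine by ornithine transcarbamylase (Otc) to give citrulline, all in mitochondria. In the cytosol, argininosuccinate synthase (Ass1) and lyase (Asl) turn citrulline into arginine, and arginase 1 (Arg1) splits arginine into urea and ornithine. Arginase 2 (Arg2) is the mitochondrial arginase of tissues outside the liver, glutamine synthetase (Glul) binds ammonia to glutamate in the hepatocytes around the central vein, and Aldh18a1 begins the synthesis of proline and ornithine from glutamate. In adult mammals the small intestine is known to burn glutamine and to release citrulline, which other organs turn into arginine.

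The small intestine libraries held 26609786 to 43580050 counts each and those labelled liver 12742629 to 42669857. Levels are given as TMM-normalised CPM, that is counts per 1e+06 after edgeR's correction for composition, and are set against each other between genes only after division by exon length in kb. The labelled tissue was checked against markers. Alb, the main plasma protein of hepatocytes, averaged 340 ± 55.6, 696 ± 414 and 56045 ± 2345 CPM (SD, n = 3 each) in the libraries labelled liver day 0, day 10 and day 20, and Olfm4, a crypt stem cell marker, averaged 6751 ± 374, 3913 ± 1144 and 48.6 ± 11.5 CPM. The libraries labelled liver day 0 and day 10 thus go against their tissue label, those of day 20 do not, and all are called here by label only. Every contrast of day 20 with day 0 or day 10 is also a contrast of these contents and cannot be told apart from it. Xist, the transcript of the inactive X chromosome of female cells, averaged 23.7 ± 2.26, 432 ± 170 and 1.74 ± 0.291 CPM at day 0, 10 and 20, and the Y-linked gene Eif2s3y 37 ± 4.64, 1.01 ± 0.801 and 69.8 ± 2.61 CPM, so transcripts of both sex chromosomes differed between the days as well. By the running numbers in the file names, hepatectomy and sham libraries form separate series, so each effect of hepatectomy cannot be told apart from a difference between series. The series also differed in the number of genes with a rounded count above 0, with 29786 to 30461 in the hepatectomy libraries against 24420 to 26186 in the sham libraries.

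In the intestine the mitochondrial steps were abundant and the cytosolic steps scarce. In the 8 intestinal libraries the sum of Ass1, Asl and Arg1 came to between 5.11 and 6.51% of the sum of Nags, Cps1 and Otc, on the scale of CPM per kb. In the 3 libraries labelled liver day 20 it came to between 342 and 357%. Those labelled day 0 and day 10 lay between, at 8.5 to 22.4% and 10.1 to 25.9%. The top of the day 0 range is replicate 1, which was low for Cps1. There Cps1 made up 24.7% of the summed level of the 9 transcripts, against 63.6 and 63.3% in replicates 2 and 3. In the intestine Ass1, Asl and Arg1 were thus scarce beside the enzymes of the steps up to citrulline, while Arg2, the other arginase, is outside these sums and was abundant. At day 20 the excess came from Arg1, at 2074 ± 23.6 CPM per kb (SD, n = 3), since Ass1 with 317 ± 11.6 was below Cps1 with 449 ± 11.2, and Asl with 215 ± 10.1 was close to Otc with 228 ± 12.9. The tables were counted differently, so these shares are descriptions within a library and were not tested between the tables.

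**Figure D1:**
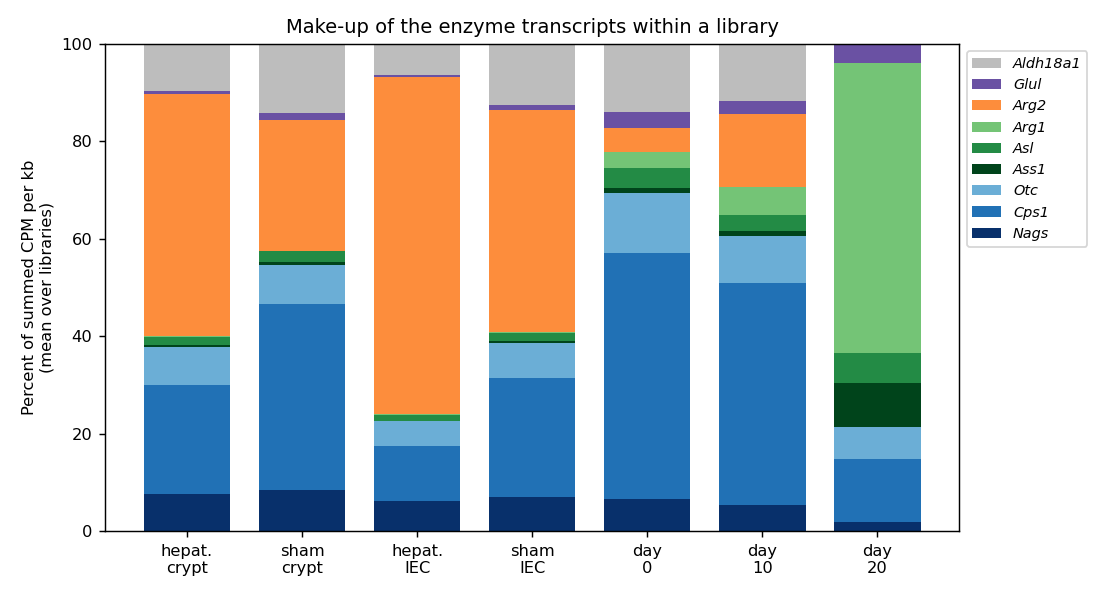
Share of each enzyme in the summed level of the 9 transcripts (percent of CPM per kb, mean over the libraries of a group), by group. Arg2 (orange) and Cps1 (mid blue) fill most of the intestinal bars, and Arg1 (light green), with 59.1 to 59.7% of the sum, fills most of the day 20 bar.

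Arg2 and Cps1 led in the intestine. Arg2 made up 49.2 to 49.9% of the summed CPM per kb of the 9 transcripts in hepatectomy crypts and 26.1 to 27.8% in sham crypts, 68.4 to 69.9% in hepatectomy IEC and 45.3 to 46.1% in sham IEC. Cps1 made up 22.4 to 22.5%, 37.7 to 38.6%, 10.8 to 11.8% and 24.4 to 24.4% in the same order of groups. Hence Cps1 led in sham crypts and Arg2 in the other 3 intestinal groups, with no overlap between hepatectomy and sham for either gene. In the day 20 libraries Arg1 took 59.1 to 59.7%, followed by Cps1 with 12.6 to 13.1%, Ass1 with 8.82 to 9.5%, Otc with 6.24 to 6.88%, Asl with 5.77 to 6.37% and Glul with 3.74 to 4.08%. Nags took 1.85 to 1.94%, and Aldh18a1 and Arg2 closed the order with 0.0212 to 0.0258% and 0.0116 to 0.0186%. The ranges of Otc and Asl overlapped, and those of no other neighbours in this order did. The order also depends on the exon lengths used.

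The summed level of all 9 transcripts was 533 ± 2.44 CPM per kb in hepatectomy crypts against 414 ± 8.64 in sham crypts, and 849 ± 8.09 in hepatectomy IEC against 563 ± 11.9 in sham IEC (SD, n = 2 each). It was 398 ± 116, 416 ± 59.5 and 3487 ± 30 CPM per kb at day 0, day 10 and day 20 (SD, n = 3 each). The spread at day 0 includes replicate 1, in which Cps1 was low. The arginase transcripts were exchanged almost completely. Arg2 made up 99.6 to 99.9% of the summed Arg1 and Arg2 level per kb in every intestinal library, 55.3 to 65.6% at day 0, 67.8 to 80.5% at day 10, and 0.0196 to 0.0311% at day 20. Arg1 itself had 28 and 43 counts in hepatectomy crypts, against 23 and 32 in those after sham, and 41 and 33 counts in hepatectomy IEC, against 16 and 21 in sham IEC. It was thus rare in every intestinal library.

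Promoter sequence is shown for 4 members whose levels separate the tissue contents: Otc, which the intestine keeps, Ass1 and Glul, which were low there and high at day 20, and Aldh18a1, which was lowest at day 20. Each run is the 250 bases before the RefSeq start on GRCm38.p6, 5′ to 3′ on the gene's strand, and capitals mark a CCAAT box found by search. Sequences were matched for 5 of the 9 members, Otc, Ass1, Nags, Glul and Aldh18a1.
Otc, chrX:10252055-10252304, plus strand: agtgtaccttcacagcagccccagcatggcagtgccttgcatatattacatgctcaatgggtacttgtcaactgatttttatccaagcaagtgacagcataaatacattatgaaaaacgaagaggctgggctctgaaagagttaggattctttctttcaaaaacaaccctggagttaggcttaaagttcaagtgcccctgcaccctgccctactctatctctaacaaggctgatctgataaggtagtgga
Ass1, chr2:31470020-31470269, plus strand: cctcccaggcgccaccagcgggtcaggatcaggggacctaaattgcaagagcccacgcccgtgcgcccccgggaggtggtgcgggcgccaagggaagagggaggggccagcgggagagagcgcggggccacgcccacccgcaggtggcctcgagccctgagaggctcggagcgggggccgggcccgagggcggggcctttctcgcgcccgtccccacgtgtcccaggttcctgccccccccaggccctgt
Glul, chr1:153899679-153899928, plus strand: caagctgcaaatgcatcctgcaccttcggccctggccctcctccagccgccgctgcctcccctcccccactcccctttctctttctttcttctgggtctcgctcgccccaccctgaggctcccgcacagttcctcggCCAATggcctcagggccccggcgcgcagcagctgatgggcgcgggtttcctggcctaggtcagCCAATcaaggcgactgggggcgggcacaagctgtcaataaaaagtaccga
Aldh18a1, chr19:40588464-40588713, minus strand: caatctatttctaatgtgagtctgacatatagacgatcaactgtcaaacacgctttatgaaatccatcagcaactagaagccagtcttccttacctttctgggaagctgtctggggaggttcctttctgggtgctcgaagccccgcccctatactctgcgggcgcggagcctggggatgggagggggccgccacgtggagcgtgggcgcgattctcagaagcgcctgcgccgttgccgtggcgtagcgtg
The base composition of the runs differed widely. GC made up 43.6% of the Otc run, 57.2% of the Aldh18a1 run, 64.8% of the Glul run and 75.6% of the Ass1 run, against a median of 52.4% over 32851 promoters. Of 5 motifs searched on both strands, CCAAT was found in Glul, 113 to 109 and 50 to 46 bases before the start, and 33.8% of all promoters hold it. CTTTGAT, the core bound by TCF/LEF factors, was found as its reverse complement in Nags, 204 to 198 bases before the start, and 3.21% of all promoters hold it. TATAAA (12.4% of promoters), CAAAGTC (a core of the HNF4 site, 3.84%) and GTTAAT (a half-site of HNF1, 6.43%) were not in the 5 windows.

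After hepatectomy the intestinal enzymes moved in both directions. In crypts 3 of the 9 transcripts were higher and 4 lower than after sham at an adjusted p under 0.05 (edgeR's quasi-likelihood test with Benjamini-Hochberg adjustment over all 18207 genes tested), where 37.5% of all genes passed, 19.2% higher and 18.3% lower. In IEC 2 were higher and 4 lower, where 37.8% of all genes passed, 19.5% higher and 18.3% lower. The median log2 fold change of the 9 was 0.09 in crypts and 0.07 in IEC, against 0.02 over all genes in IEC and 7.3e-03 in crypts. The 7 of 9 in crypts and 6 of 9 in IEC stand above that background, a gap that was not tested, and the enzymes are given one by one.

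**Figure D2:**
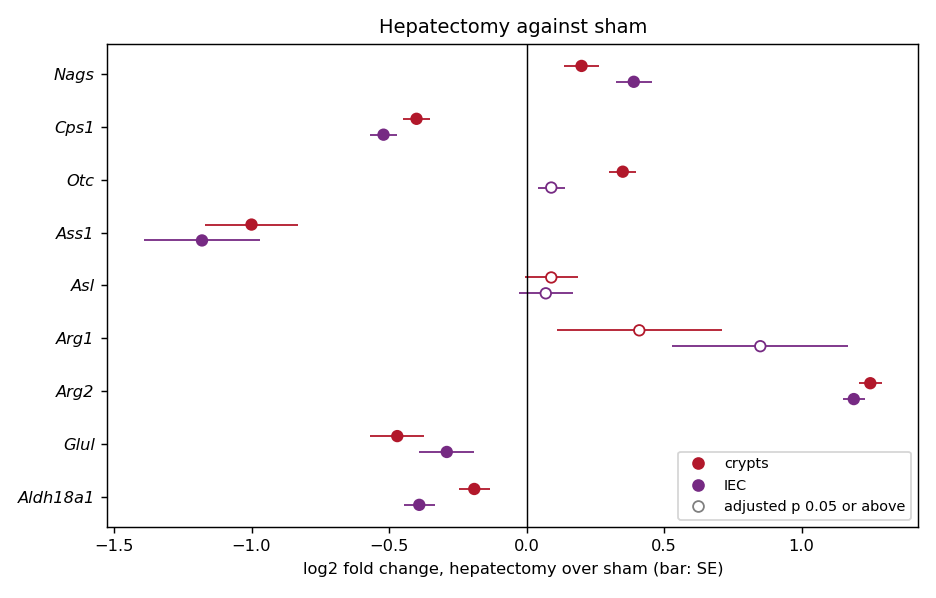
Log2 fold change of each enzyme transcript, hepatectomy over sham, in crypts (red, upper point of each pair) and IEC (purple, lower point), with SE as bars; open circles have an adjusted p of 0.05 or above. Arg2 lies farthest to the right, at 1.25 in crypts and 1.19 in IEC, and Ass1 farthest to the left, at -1.00 and -1.18.

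Arg2 changed most among the rises. Arg2 had 373 and 381 CPM in hepatectomy crypts, against 156 and 162 CPM in sham crypts, and 834 and 842 CPM in hepatectomy IEC, against 370 and 365 CPM in sham IEC. All hepatectomy libraries lay far above their sham counterparts. The log2 fold change was 1.25 ± 0.041 in crypts (SE, adjusted p = 8.4e-10, edgeR) and 1.19 ± 0.041 in IEC (adjusted p = 6.2e-10), a 2.37-fold and a 2.28-fold difference. The difference between the effects, crypts minus IEC, was 0.05 ± 0.057 on the log2 scale (adjusted p = 0.56). Beside this, the 8 markers of enterocytes, the absorptive cells (Alpi, Fabp1, Fabp2, Sis, Lct, Rbp2, Apoa4 and Slc5a1), all rose, 8 of 8 in both preparations, with a summed level of 7380 to 7597 CPM in hepatectomy crypts against 2620 to 2643 in sham crypts, and of 46263 to 47955 CPM in hepatectomy IEC against 17457 to 17728 in sham IEC. None of the 8 was at 0 in any group, and the part of enterocyte content in the rise of Arg2 was not tested. In such bulk libraries more cells of a type and more RNA per cell cannot be told apart.

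Cps1, the entry step of the cycle, fell. Cps1 had 663 and 665 CPM in hepatectomy crypts, against 901 and 854 CPM in sham crypts, and 560 and 507 CPM in hepatectomy IEC, against 775 and 753 CPM in sham IEC. The groups did not overlap in either preparation. With 2 libraries per group, lack of overlap is weak evidence here and for the other members, and its share over all genes was not computed. The log2 fold change was -0.40 ± 0.05 in crypts (adjusted p = 6.6e-05, edgeR) and -0.52 ± 0.05 in IEC (adjusted p = 5.5e-06). Crypt stem cell markers (Lgr5, Olfm4, Ascl2, Smoc2 and Axin2) summed to 1066 to 1090 CPM in hepatectomy crypts against 1837 to 1880 in sham crypts, and to 761 to 777 CPM in hepatectomy IEC against 1577 to 1581 in sham IEC, with 3 of 5 fallen in each and 0 risen. Most of that sum is Olfm4, which averaged 929 ± 8.48 CPM in hepatectomy crypts and 1674 ± 34.1 in sham crypts, while Axin2 with 31 ± 0.73 and 28.5 ± 0.275 CPM and Ascl2 with 12.9 ± 0.294 and 12.4 ± 1.71 CPM (SD, n = 2 each) did not pass in crypts, and the median log2 fold change of the 5 was -0.32 in crypts and -0.37 in IEC. Proliferation markers (Top2a, Mki67, Mcm2, Ccnb1 and Rrm2) summed to 371 to 381 against 540 to 552 CPM in crypts and to 196 to 202 against 377 to 378 CPM in IEC, with 4 of 5 and 5 of 5 fallen. Markers of other cell types differed as well, as medians of the log2 fold change of each list. In crypts all 5 Paneth cell markers fell (median -1.20), as did 5 of 5 of goblet cells (-1.22), 5 of 5 of T and NK cells (-1.41), 4 of 4 of B and plasma cells (-2.23) and 2 of 3 erythroid markers tested (-1.35), and 2 of 3 fibroblast markers tested rose (2.35). In IEC 4 of 5 Paneth cell markers fell and 1 rose (-0.55), 2 goblet cell markers fell and 2 rose (0.08), 2 of 5 of T and NK cells (-0.26) and 4 of 4 of B and plasma cells (-1.69) fell, and 2 of 3 erythroid (0.28) and 2 of 3 fibroblast markers (1.62) rose. In summed level B and plasma cell markers came to 12.9 to 14.8 CPM in hepatectomy crypts against 59.1 to 63.7 in sham crypts, and fibroblast markers to 5.28 to 6.14 CPM against 0.587 to 0.703. Of 6 macrophage markers tested, 1 fell and 0 rose in crypts (-0.08), and 3 rose and 0 fell in IEC (0.36). They summed to 11.4 to 11.8 CPM in hepatectomy IEC against 7.27 to 8.28 in sham IEC. The 1 neutrophil marker tested and 1 of 2 endothelial markers tested rose in IEC, and none of them passed in crypts. Csf3r, Cxcr2 and Mpo of the neutrophil list were at 0 in both libraries of sham crypts, and Mpo in those of sham IEC. No marker of the other lists named here was at 0 in all libraries of a group. The part of all these markers in the fall of Cps1 and in the other effects of hepatectomy was not tested.

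The step that follows, Otc, did not go along with Cps1. Otc had 181 and 172 CPM in hepatectomy crypts, against 139 and 137 CPM in sham crypts, and 179 and 186 CPM in hepatectomy IEC, against 167 and 175 CPM in sham IEC. Crypts after sham stood apart as the low group, and the other 3 groups lay close together. Otc rose in crypts by 0.35 ± 0.049 on the log2 scale (adjusted p = 0.00016, edgeR), and the value in IEC was 0.09 ± 0.049 (adjusted p = 0.16). The difference of the effects was 0.26 ± 0.07 (adjusted p = 0.023), the 1 call among the 9 transcripts, where 19.2% of all genes passed, 9.15% with a positive and 10.1% with a negative difference, crypts minus IEC. That call was lost without replicate 2 of sham IEC (0.22, adjusted p = 0.098), replicate 2 of sham crypts (0.27, 0.06), replicate 1 of hepatectomy IEC (0.23, 0.07) or replicate 1 of hepatectomy crypts (0.24, 0.057). Per kb, Cps1 exceeded Otc 2.8-fold and 2.94-fold in hepatectomy crypts, against 4.94-fold and 4.74-fold in sham crypts, and 2.39-fold and 2.08-fold in hepatectomy IEC, against 3.55-fold and 3.28-fold in sham IEC.

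Nags, which makes the activator of Cps1, was higher while Cps1 was lower. Nags had 84.6 and 80.6 CPM in hepatectomy crypts, against 74.9 and 69.1 CPM in sham crypts, and 111 and 104 CPM in hepatectomy IEC, against 85.9 and 77.6 CPM in sham IEC. The groups did not overlap, by a narrow margin in crypts. Nags rose by 0.20 ± 0.065 on the log2 scale in crypts (adjusted p = 0.032, edgeR) and by 0.39 ± 0.066 in IEC (adjusted p = 0.00047). The call in crypts was lost in 4 of 14 alternatives, those with no filter (0.15, adjusted p = 0.078) and without replicate 2 of sham crypts (0.14, 0.23), replicate 1 (0.17, 0.14) or replicate 2 of hepatectomy crypts (0.23, 0.052).

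Of the cytosolic steps, Ass1 fell and Asl did not pass the test. Ass1 had 2.41 and 2 CPM in hepatectomy crypts, against 4.26 and 4.52 CPM in sham crypts, and 1.21 and 1.11 CPM in hepatectomy IEC, against 2.76 and 2.53 CPM in sham IEC. These rest on 31 to 206 counts per library. All sham libraries of a preparation were above all of its hepatectomy libraries, and the log2 fold change was -1.00 ± 0.17 in crypts (adjusted p = 0.00056, edgeR) and -1.18 ± 0.21 in IEC (adjusted p = 0.00075). Asl had 28.3 and 29.7 CPM in hepatectomy crypts, against 27.6 and 26.9 CPM in sham crypts, and 33.5 and 29 CPM in hepatectomy IEC, against 32.9 and 26.7 CPM in sham IEC. The IEC groups overlapped and the crypt groups did not, and the changes of 0.09 ± 0.096 in crypts and 0.07 ± 0.099 in IEC did not pass (adjusted p = 0.49 and 0.62). Asl thus exceeded Ass1 per kb 6.68-fold and 8.44-fold in hepatectomy crypts, against 3.69-fold and 3.38-fold in sham crypts, and 15.7-fold and 14.9-fold in hepatectomy IEC, against 6.78-fold and 6-fold in sham IEC. Arg1, at 0.822 and 1 CPM in hepatectomy crypts against 0.675 and 0.703 CPM in sham crypts, and 1.35 and 1.18 CPM in hepatectomy IEC against 0.597 and 0.805 CPM in sham IEC, had log2 fold changes of 0.41 ± 0.3 (adjusted p = 0.32) and 0.85 ± 0.32 (adjusted p = 0.056). Its groups overlapped in neither preparation, and a change of Arg1 was not detectable at these counts.

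The side steps of glutamine and proline were lower. Glul had 11.1 and 10.6 CPM in hepatectomy crypts, against 15.2 and 14.8 CPM in sham crypts, and 10.4 and 11.2 CPM in hepatectomy IEC, against 14.4 and 12.1 CPM in sham IEC. Glul fell by 0.47 ± 0.098 on the log2 scale in crypts (adjusted p = 0.0025, edgeR) and by 0.29 ± 0.1 in IEC (adjusted p = 0.043), and the call in IEC was lost in 8 of 14 alternatives, among them those without replicate 1 of sham IEC (-0.17, adjusted p = 0.32), of hepatectomy IEC (-0.26, 0.18) or replicate 2 of hepatectomy IEC (-0.35, 0.07). Aldh18a1 had 179 and 183 CPM in hepatectomy crypts, against 215 and 200 CPM in sham crypts, and 199 and 183 CPM in hepatectomy IEC, against 258 and 242 CPM in sham IEC. The groups overlapped for neither gene. Aldh18a1 fell by 0.19 ± 0.056 in crypts (adjusted p = 0.017) and by 0.39 ± 0.057 in IEC (adjusted p = 0.00016), and the call in crypts was lost without replicate 1 of sham crypts (-0.14, adjusted p = 0.18) or of hepatectomy crypts (-0.17, 0.093).

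Other enzymes of glutamate, glutamine, ornithine and proline and the carriers of these substrates went both ways. Beside the shares of all genes given above (19.2% higher and 18.3% lower in crypts, 19.5% and 18.3% in IEC), the counts of these lists are descriptions. Of 26 such enzymes tested (of 27 listed), 6 rose and 12 fell in crypts (median log2 fold change -0.22) and 8 rose and 7 fell in IEC (median -0.05). The 4 with the smallest p in crypts were the alanine transaminase Gpt (0.98 ± 0.053, adjusted p = 4.9e-08), the pyrimidine enzyme Cad, which carries its own glutamine-fed carbamoyl phosphate synthetase (-0.76 ± 0.067, adjusted p = 3.6e-06), the ornithine decarboxylase Odc1 (0.75 ± 0.081, adjusted p = 2.2e-05) and the asparagine synthetase Asns (-0.45 ± 0.057, adjusted p = 7.7e-05). In IEC they were Gpt (1.29 ± 0.051), the nitric oxide synthase Nos2, which uses arginine (-1.08 ± 0.072), Aldh4a1 of proline breakdown (1.08 ± 0.074) and the aspartate transaminase Got1 (0.65 ± 0.049), with adjusted p-values of at most 6.1e-07. Oat, which links ornithine to glutamate semialdehyde and was in part singled out after its values were seen, averaged 836 ± 4.46 CPM in hepatectomy crypts and 922 ± 20.9 in sham crypts (-0.14 ± 0.041, adjusted p = 0.017), and 1129 ± 42.5 CPM in hepatectomy IEC and 1119 ± 14.5 in sham IEC (0.01 ± 0.041, adjusted p = 0.84).

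Of 19 carriers tested (of 21 listed), 7 rose and 4 fell in crypts (median 0.08), and 7 rose and 8 fell in IEC (median 0.13). The same 4 had the smallest p in both preparations and all rose. They are the mitochondrial ornithine and citrulline exchanger Slc25a15 (0.38 ± 0.047 in crypts and 0.72 ± 0.047 in IEC), the neutral amino acid transporter of the brush border Slc6a19 (1.30 ± 0.062 and 1.26 ± 0.059), and the transport subunits for cationic amino acids Slc7a7 (0.49 ± 0.047 and 0.76 ± 0.047) and Slc7a9 (0.42 ± 0.046 and 0.91 ± 0.045), with adjusted p-values of at most 6.3e-05. Slc25a15 averaged 162 ± 6.08 CPM in hepatectomy crypts and 125 ± 2.96 in sham crypts, and 274 ± 4.58 CPM in hepatectomy IEC and 166 ± 2.31 in sham IEC (SD, n = 2 each). Of 16 liver and enterocyte regulators tested (of 17 listed), 8 rose and 2 fell in crypts and 6 rose and 2 fell in IEC, led in both by Creb3l3, a factor of liver and gut fat metabolism (1.52 ± 0.054 and 1.70 ± 0.053). Hnf4a, a factor of both tissues, fell in IEC by 0.30 ± 0.045 (adjusted p = 0.00024, edgeR), and its value in crypts was -1.1e-03 ± 0.045 (adjusted p = 0.99). The genes of periportal hepatocytes had 2 risen and 2 fallen of 5 tested in both preparations, among them Pck1, an enzyme of gluconeogenesis (1.93 ± 0.083 and 2.81 ± 0.065). Genes of pericentral hepatocytes had 2 risen and 2 fallen of 9 in crypts and 4 and 2 of 9 in IEC.

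Between the preparations the enzymes went both ways, as genes did in general. After sham, 6 of the 9 differed, 2 higher and 4 lower in crypts than in IEC. Of all genes 38.6% passed there, 19.3% higher and 19.3% lower. After hepatectomy 4 of the 9 differed, 2 higher and 2 lower, where 51.9% of all genes passed, 26.3% higher and 25.6% lower. Arg2 was lower in crypts than in IEC, with a log2 fold change of -1.15 ± 0.041 after hepatectomy (adjusted p = 2e-10, edgeR) and -1.21 ± 0.041 after sham (adjusted p = 2.6e-10). Nags was also lower, at -0.38 ± 0.065 and -0.18 ± 0.066 (adjusted p = 0.00033 and 0.044), and the call after sham was lost with no filter (-0.14, adjusted p = 0.13) and without replicate 1 of sham IEC (-0.11, 0.35) or replicate 2 of sham crypts (-0.13, 0.29). Cps1 was higher in crypts, by 0.32 ± 0.05 and 0.20 ± 0.05 (adjusted p = 0.00019 and 0.0074), and the value after sham was lost without replicate 1 of sham crypts (0.15, adjusted p = 0.11) or replicate 2 of sham IEC (0.18, 0.067). Ass1 was higher as well, by 0.91 ± 0.21 and 0.73 ± 0.17 (adjusted p = 0.0026 and 0.0047). Otc and Aldh18a1 were lower in crypts after sham (-0.31 ± 0.049 and -0.27 ± 0.056), and after hepatectomy their values were -0.05 ± 0.049 and -0.07 ± 0.057 (adjusted p = 0.44 and 0.32). Asl, Arg1 and Glul passed in neither. The crypt label was set against markers in the same comparison. In crypts all 8 enterocyte markers were lower and all 5 proliferation markers higher than in IEC, after hepatectomy and after sham. Paneth cells sit at the crypt base, yet their markers were also lower in crypts, in 5 of 5 after hepatectomy (560 to 561 CPM summed, against 2106 to 2140 in IEC) and 4 of 5 after sham (1194 to 1291 against 3163 to 3328 CPM). Stem cell markers were mixed, with 3 higher and 1 lower of 5 after hepatectomy and 2 higher and 2 lower after sham. Goblet cell markers were lower in 5 of 5 after hepatectomy, and after sham in 4 of 5 with 1 higher, and erythroid markers in 3 of 3 tested in both. The part of these contents in the differences of the enzymes was not tested.

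The genes most like 4 of the members over the 8 intestinal libraries, by Pearson's r of log2(CPM + 0.5) among 9543 genes with a mean of at least 5 CPM, are given as a description, since the libraries share groups and preparations. For Arg2 they were Abcc2 (r = 0.999), Pklr (0.997) and D5Ertd579e (0.997). Abcc2, an export pump for conjugates, averaged 45.4 CPM in hepatectomy crypts and 12 in sham crypts, and 148 CPM in hepatectomy IEC and 45.7 in sham IEC. For Cps1 they were Gtf2h3, Parp1 and Tnfaip8l1 (0.996 each), of which the DNA repair enzyme Parp1 averaged 39.6 and 56.7 CPM in hepatectomy and sham crypts, and 31.3 and 48.3 CPM in hepatectomy and sham IEC. For Otc they were Arhgef5 (0.991), Arl5a (0.987) and Rhou (0.983), and for Glul the spermine oxidase Smox (0.986), Gpam (0.977) and Uqcc1 (0.974).

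**Figure D3:**
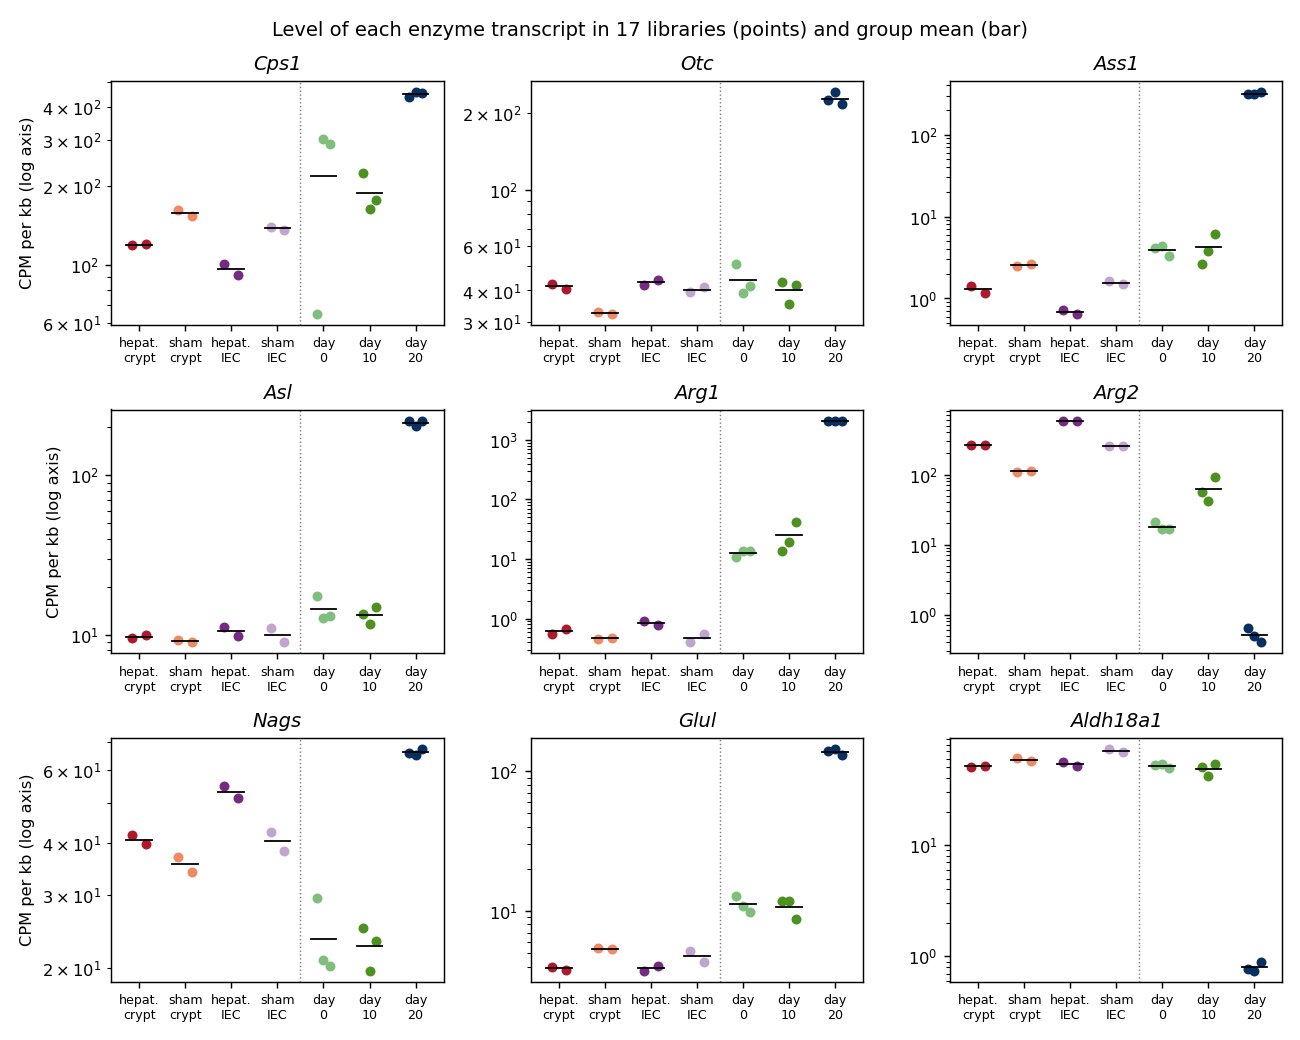
Level of each enzyme transcript in CPM per kb (log axis, with a scale of its own per gene) in the 17 libraries; points are libraries, bars are group means, and the dotted line separates the small intestine from the libraries labelled liver, which were normalised separately. Arg1, Ass1, Asl and Glul stand highest at day 20, where Arg2 and Aldh18a1 are near the bottom, and 1 of the 3 day 0 libraries is low for Cps1 at 65.1 CPM per kb.

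In the libraries labelled liver, all 9 transcripts differed between day 20 and day 0, 7 higher and 2 lower, where 71.4% of all genes passed, 33.3% higher and 38.1% lower. The counts were the same between day 20 and day 10, where 71.1% passed, 30.8% higher and 40.3% lower. The median log2 fold change of the 9 was 2.38 and 2.51, against -0.16 and -0.21 over all genes. Both comparisons use the same day 20 libraries. Arg1 had 16.1, 20 and 19.8 CPM at day 0, 19.8, 29.1 and 61.4 CPM at day 10, and 3055, 3101 and 3032 CPM at day 20. The day 20 libraries stood far above all others, with a log2 fold change of 7.36 ± 0.43 against day 0 (adjusted p = 4.4e-09, edgeR) and 6.38 ± 0.41 against day 10 (adjusted p = 1.4e-08). Ass1 had 7.02, 7.41 and 5.67 CPM at day 0, 4.51, 6.51 and 10.5 CPM at day 10, and 524, 527 and 560 CPM at day 20. It was 6.32 ± 0.29 higher on the log2 scale at day 20 than at day 0 (adjusted p = 6.4e-10), an 80.0-fold difference, and 6.24 ± 0.3 higher than at day 10 (adjusted p = 9.8e-10).

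Asl and Glul followed at a distance. Asl had 52.2, 38.3 and 38.8 CPM at day 0, 39.9, 34.8 and 44.7 CPM at day 10, and 658, 606 and 660 CPM at day 20. Its log2 fold change was 3.89 ± 0.19 for day 20 against day 0 (adjusted p = 9.3e-10, edgeR) and 4.01 ± 0.19 against day 10 (adjusted p = 1.1e-09). Day 0 and day 10 overlapped for Asl and for Glul. Glul had 35.8, 30.3 and 27.3 CPM at day 0, 33, 32.7 and 24.3 CPM at day 10, and 389, 401 and 363 CPM at day 20, a log2 fold change of 3.62 ± 0.18 against day 0 (adjusted p = 1.1e-09) and 3.68 ± 0.18 against day 10 (adjusted p = 1.4e-09).

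The mitochondrial steps differed less. Otc had 215, 166 and 177 CPM at day 0, 183, 150 and 178 CPM at day 10, and 958, 1028 and 920 CPM at day 20, with a log2 fold change of 2.38 ± 0.18 against day 0 (adjusted p = 6.3e-08, edgeR) and 2.51 ± 0.18 against day 10 (adjusted p = 4.5e-08). Nags had 59.5, 42.4 and 40.9 CPM at day 0, 50.8, 39.9 and 47.1 CPM at day 10, and 133, 132 and 136 CPM at day 20, with 1.49 ± 0.17 (adjusted p = 3.3e-06) and 1.54 ± 0.17 (adjusted p = 2.8e-06). For both genes every day 20 library was above every earlier one, and day 0 and day 10 overlapped. Cps1 had 362, 1673 and 1602 CPM at day 0, 1248, 903 and 985 CPM at day 10, and 2422, 2535 and 2524 CPM at day 20. The day 20 libraries were highest and close together, while replicate 1 of day 0 stood far below the other 2 of its group. The log2 fold change was 1.04 ± 0.42 against day 0 (adjusted p = 0.041) and 1.25 ± 0.42 against day 10 (adjusted p = 0.018). The first of these calls was lost with only the groups compared (0.91, adjusted p = 0.12) and without replicate 1 (1.06, 0.068), 2 (1.02, 0.075) or 3 (1.03, 0.074) of day 20, the second without replicate 2 of day 10 (1.17, 0.052).

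Arg2 and Aldh18a1 ran the other way. Arg2 had 29.6, 24 and 23.9 CPM at day 0, 79.4, 59.1 and 131 CPM at day 10, and 0.919, 0.696 and 0.576 CPM at day 20, the last on 25, 18 and 16 counts. Its log2 fold change was -5.14 ± 0.32 for day 20 against day 0 (adjusted p = 9.7e-09, edgeR) and -6.93 ± 0.34 against day 10 (adjusted p = 1.3e-09). Aldh18a1 had 185, 191 and 173 CPM at day 0, 178, 148 and 189 CPM at day 10, and 2.72, 2.63 and 3.17 CPM at day 20, with -6.01 ± 0.18 (adjusted p = 8.9e-11) and -5.92 ± 0.18 (adjusted p = 1.8e-10). The groups of day 20 lay below all others without overlap. Hepatocyte markers (Alb, Ttr, Apoh, Ahsg, Fgb, Serpina1c, Cyp2e1 and Tat), 8 of 8 higher at day 20 than at day 0, summed to 573 to 766 CPM at day 0, 778 to 2295 CPM at day 10 and 116130 to 120274 CPM at day 20, and to 5.67 to 12.7 CPM in the intestine, with none at 0 in any group labelled liver while Ahsg was at 0 in both crypt groups and Fgb in sham crypts.

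Of the other nitrogen enzymes, 12 of 26 tested were higher and 11 lower at day 20 than at day 0 (median log2 fold change 0.03), where 33.3% of all genes were higher and 38.1% lower, and of 19 carriers 9 were higher and 8 lower (median 0.31). Aldh4a1 (7.35 ± 0.35, adjusted p = 6.8e-10) and Gpt2 (5.90 ± 0.2, adjusted p = 8.9e-11) were among those higher at day 20, and Asns was lower (-5.17 ± 0.22, adjusted p = 2.8e-10). Among carriers the amino acid transporter Slc38a4 was higher (7.54 ± 0.37) and Slc1a5 (-5.53 ± 0.19), Slc38a1 (-5.48 ± 0.19) and the arginine transporter Slc7a1 (-5.56 ± 0.27) were lower, with adjusted p-values of at most 1e-09. Oat averaged 1284 ± 255, 1279 ± 154 and 1227 ± 23.5 CPM at day 0, 10 and 20 (SD, n = 3 each), with -0.07 ± 0.21 for day 20 against day 0 (adjusted p = 0.79). Periportal genes were higher in 6 of 8 and lower in 1 (median 6.53), and pericentral genes higher in 7 of 10 and lower in 1 (median 3.38), beside the same shares of all genes. Of 17 regulators, 11 were higher and 2 lower, with the glucagon receptor Gcgr (7.83 ± 0.41), Ppara (4.71 ± 0.17) and the mitochondrial deacetylase Sirt3 (3.55 ± 0.2) among the higher and the intestinal factor Cdx2 (-6.92 ± 0.28) lower.

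Between day 10 and day 0, 2 of the 9 transcripts passed, Arg2 and Arg1, both higher at day 10. This count is not above the shares of all genes, of which 43.6% passed and 24.7% were higher. Arg2 rose by 1.80 ± 0.25 on the log2 scale (adjusted p = 0.00071, edgeR), with every day 10 library above every day 0 library. Arg1 rose by 0.98 ± 0.33 (adjusted p = 0.032), but replicate 1 of day 10 lay within the day 0 range and replicate 3 far above the rest. The Arg1 call was lost in 5 of 15 alternatives, those without replicate 1 (0.73, adjusted p = 0.12), 2 (0.87, 0.074) or 3 of day 0 (0.84, 0.076), without replicate 3 of day 10 (0.35, 0.14) and with only the groups compared (0.87, 0.09). That replicate was also the shallowest library, at 12742629 counts. The median of all genes was 0.10. Markers of enterocytes rose alongside Arg2, 6 of 8 with a summed level of 726 to 2090 CPM at day 10 against 458 to 511 CPM at day 0. They include Fabp1, which averaged 272 ± 196 CPM at day 10 and 11304 ± 413 at day 20. Other lists rose too, with hepatocyte markers in 7 of 8, endothelial in 4 of 4, and fibroblast and smooth muscle in 3 of 4 each. Proliferation markers fell in 3 of 5 and rose in 1, and stem cell markers fell in 2 of 5. T and NK cell markers fell in 2 of 4 tested. Paneth cell markers rose in 1 of 5, and their sum differed widely among the day 10 libraries, at 5552 to 77317 CPM against 27729 to 37971 CPM at day 0. The part of these contents was not tested. The other 7 members had log2 fold changes between -0.21 (Cps1) and 0.08 (Ass1) that did not pass.

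At day 0 and day 10 the level of Arg1 moved library by library with hepatocyte markers. As a percentage of the day 20 mean, Arg1 stood at 0.525, 0.654 and 0.647% at day 0 and 0.648, 0.949 and 2% at day 10. Alb stood at 0.495, 0.685 and 0.642% and at 0.672, 0.977 and 2.08%. Ttr, Ahsg, Apoh and Fgb ranged from 0.448 to 2.95% in these 6 libraries and were each highest in replicate 3 of day 10. Ass1 was above these markers at day 0, at 1.06 to 1.38%, and within their range at day 10, at 0.84 to 1.95%. Asl with 5.44 to 8.15%, Glul with 6.33 to 9.31%, Otc with 15.5 to 22.2%, Nags with 29.7 to 44.4% and Cps1 with 14.5 to 67.1% were all above the range of those 5 markers. The part of hepatocyte RNA in the level of Arg1 was not tested.

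**Figure D4:**
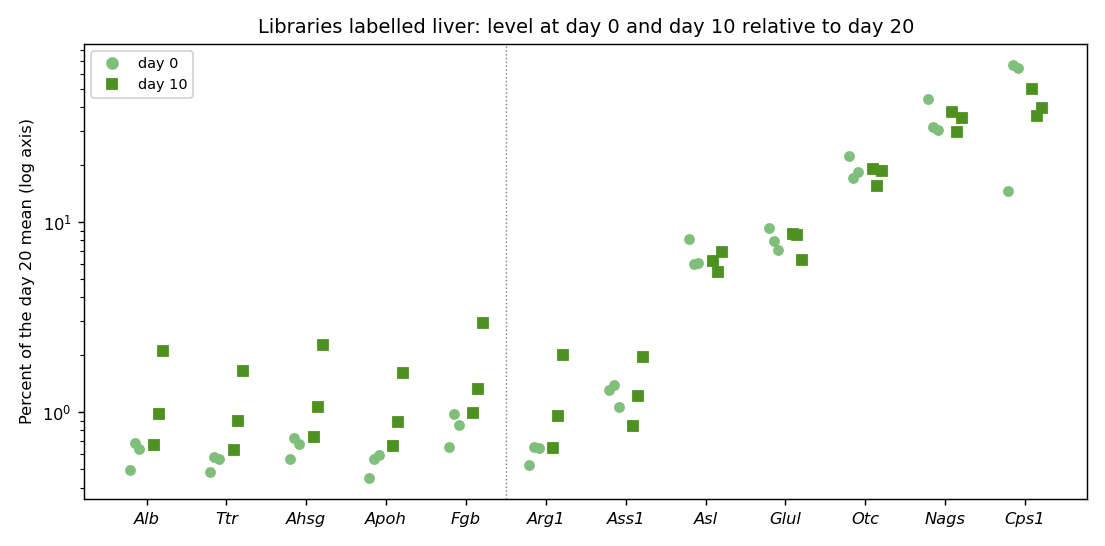
Level of 5 hepatocyte markers (left of the dotted line) and of the 7 enzymes that were higher at day 20 (right) in each library labelled liver day 0 (circles) or day 10 (squares), in percent of the day 20 mean on a log axis. Arg1 lies in the range of the markers, with 0.525 to 2%, and Asl, Glul, Otc, Nags and Cps1 lie above it.

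The low Cps1 value of replicate 1 of day 0 was not shared by the other members with a mean of at least 20 CPM at day 0. The level of Cps1 was 0.221 times the mean of replicates 2 and 3, whereas Otc, Asl, Arg2, Nags, Glul and Aldh18a1 stood at 1.01 to 1.42 times that mean. Arg1 and Ass1 were below 20 CPM. In percent of the day 20 mean, Arg1 stood at 0.525 in replicate 1 against 0.654 and 0.647 in replicates 2 and 3, and Ass1 at 1.31 against 1.38 and 1.06. Of 6252 genes with a mean of at least 20 CPM at day 0, 273 were at least 2-fold lower in replicate 1 and 0 at least 2-fold higher. Of these, 3 genes, Cps1 included, were at least as low as Cps1. The 273 genes had a median exon length of 5.18 kb (269 with a length), against 2.99 kb over all, and Cps1 has 5.55 kb. The part of transcript length in this was not tested. Without this library, Cps1 fell at day 10 against day 0 by 0.76 on the log2 scale (adjusted p = 0.019), against -0.21 (adjusted p = 0.69) with it, and was 0.57 higher at day 20 than at day 0 (adjusted p = 0.031).

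**Figure D5:**
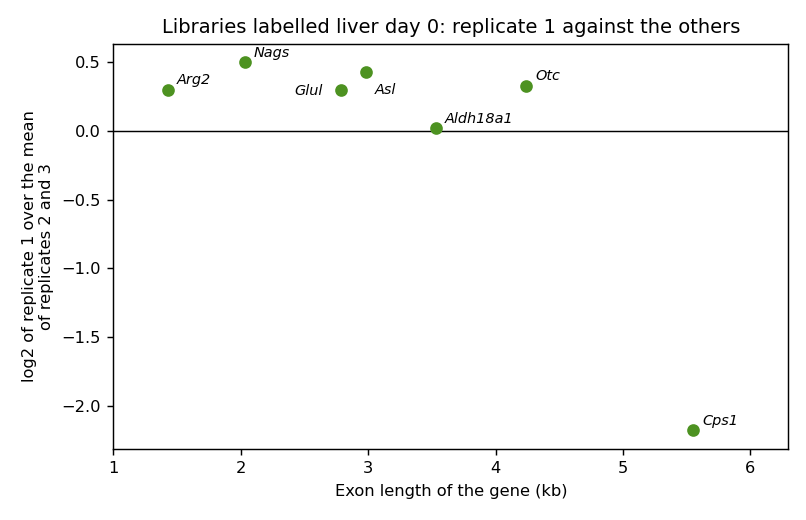
Log2 ratio of the library labelled liver day 0, replicate 1, over the mean of replicates 2 and 3, against the exon length of the gene in kb, for the 7 enzymes with a mean of at least 20 CPM at day 0. Cps1, the longest at 5.55 kb, lies at -2.18, and the other 6 lie between 0.02 and 0.50.

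All members were placed on GRCm38. Cps1 lies on chromosome 1 (67123026 to 67231259, plus strand), Otc on the X chromosome (10252305 to 10321024, plus), Ass1 on chromosome 2 (31470207 to 31520672, plus), Asl on chromosome 5 (130011258 to 130029247, minus) and Arg1 on chromosome 10 (24915221 to 24927484, minus). Arg2 lies on chromosome 12 (79130777 to 79156301, plus), Nags on chromosome 11 (102145513 to 102149477, plus), Glul on chromosome 1 (153899944 to 153909723, plus) and Aldh18a1 on chromosome 19 (40550257 to 40588463, minus). Arg2 overlaps Vti1b and an antisense transcript, Nags an antisense transcript, Glul Teddm2 and Mir8114, and Aldh18a1 a processed pseudogene. Whether counting used strand is not stated, so the counts of these 4 genes are uncertain to that extent.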

How the data were processed

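Bulk RNA was sequenced from 17 WT mouse samples, with 1 ug of RNA from an RNeasy kit going into each library per the labels. Per the submitters' processing notes, STAR and Partek were used with mm10; no versions are given. The small intestine files hold expected counts deposited by the authors (estimated counts per gene symbol, 36.7% of them not whole), which were rounded. The files labelled liver hold whole counts per gene identifier deposited by the authors, of which 24570 of 24594 were matched to RefSeq symbols (the 24 others hold 3.93 to 22.1% of a library's counts); no source used here names the program that counted them.

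The 2 tables were fitted separately with edgeR 4.0.16 (R 4.3.3): TMM, filterByExpr (minimum count 10, minimum total 15), the quasi-likelihood test and Benjamini-Hochberg adjustment over the 18207 and 16694 genes tested, threshold 0.05. SE is the log2 fold change over the root of F. The tables were not tested against each other. Exon lengths are from GENCODE vM21, with the exons of all transcripts of a gene tagged basic there merged, which can exceed the length of the transcript expressed. Promoters are from RefSeq. The procedure was tested on simulated data. Alternatives were RLE size factors, DESeq2 1.42.0, no filter, a stricter filter (1 CPM or more in all libraries of some group, overall mean of 5 CPM or more), the replicate number as a block, only the groups compared, and omitting single libraries, a lone library in a group being taken to vary as the rest do. Members and lists were chosen with earlier results of these data known. All 9 members are named, besides up to 4 genes with the smallest p per list (Oat in IEC and at day 20 is outside this rule and was chosen after its values were seen) and, for 4 members, the 3 genes most like them. Hnf4a in crypts is also outside this rule and is given beside its value in IEC. A gene of the lists is counted in them but not reported here by name. Python 3.11.15 and matplotlib 3.10.9 were used for figures. All 17 samples entered the fits.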

Additional observations from a re-analysis of the deposited data

Results flagged for a closer look

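The effect of hepatectomy on Otc differed between the preparations, by 0.26 ± 0.07 on the log2 scale, crypts minus IEC (adjusted p = 0.023, edgeR interaction term). Otc rose by 0.35 in crypts, in both hepatectomy libraries against both sham libraries, and its value was 0.09 in IEC. Over 13 alternatives the difference ranged from 0.21 to 0.31 and the adjusted p from 0.012 to 0.098.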

How the results depend on the processing

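Over the 7 kinds of alternative, 951 of the values for single enzymes kept direction and side of the threshold, 33 lost their call, 2 gained one and 30 changed sign, all 30 without a call in either setting. The number of the 9 enzymes called ranged as follows when single libraries were left out: 5 to 7 for hepatectomy in crypts, 5 to 6 in IEC, 0 to 1 for the difference of the effects and 1 to 2 for day 10 against day 0. With only the groups compared, 1 was called for day 10 against day 0, and the stricter filter called 3950 of all genes there, against 7276, with fewer genes tested. The calls gained were Otc in IEC with the stricter filter (0.15, adjusted p = 0.018) and Cps1 at day 10 without replicate 1 of day 0. The Glul call in IEC was also lost with DESeq2 (-0.29, adjusted p = 0.14), the stricter filter (-0.23, 0.089), only the groups compared (-0.30, 0.065) and without replicate 2 of sham crypts (-0.31, 0.051).

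Changes of sign (log2), whose cause was not tested, were for crypts against IEC after hepatectomy Glul at -6.8e-04 with RLE, -4.8e-04 with DESeq2, -0.05 with the stricter filter, -6.0e-03 with only the groups compared and -0.04 to 0.05 over left-out libraries, Otc at 9.9e-03 with no filter, and Asl at -0.21 to 4.6e-03 over left-out libraries. After sham they were Arg1 at 0.02 with no filter and -0.22 to 0.21 over left-out libraries, and Asl at -0.27 to 0.03 over left-out libraries. Asl had -0.03 with the stricter filter and -0.14 to 0.16 over left-out libraries for the difference of the effects, and -0.08 to 0.22 for hepatectomy in IEC. At day 10 against day 0 the stricter filter gave Otc 0.08, Asl 0.10, Nags 0.16, Glul 0.15 and Aldh18a1 0.12, and Ass1 had -0.16 with no filter and -7.0e-03 with only the groups compared. Over left-out libraries Ass1 had -0.33 to 0.17, Nags -0.30 to 0.02 and Glul -0.28 to 0.04.

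Same-numbered replicates did not deviate together (correlations of -0.0161 to 0.028 in the intestine and -0.0301 to 0.0422 in the libraries labelled liver). The 2 libraries of an intestinal group deviate as mirror images, so each pair of groups gives 1 value. These correlations cannot decide whether the numbers pair the samples. With the replicate number as a block, 7, 5, 1, 6 and 4 of the 9 were called in the 5 intestinal comparisons, where 6585, 6774, 3269, 6854 and 9340 of all genes were, and 2, 9 and 9 between the days; Glul in IEC was the 1 call lost (-0.29, adjusted p = 0.05). Depth limits Arg1 and Ass1 in the intestine and Arg2 and Aldh18a1 at day 20, all at low counts.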
